A study of Mus musculus with 13 samples.

Results

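A set of 8 genes was followed that set how the zona glomerulosa, the outer zone of the adrenal cortex, reads angiotensin II and potassium: the angiotensin receptor genes Agtr1a and Agtr1b, the zona glomerulosa marker genes Dab2 and Vsnl1, the potassium channel genes Kcnk3 and Kcnk9, and the calcium channel genes Cacna1h and Cacnb2. They were chosen by name as the rows that carry these 8 symbols, and all 8 were among the 14078 genes listed in all 3 groups, where they are covered by 12 transcript models. The RNA came from whole adrenal glands of C57BL/6 mice in which tamoxifen (written TAM in the labels) is used to delete Star, the gene of the protein that carries cholesterol into mitochondria for steroid synthesis. The groups were before TAM (5 libraries), 24 h after TAM (4 libraries) and 8 weeks after TAM (4 libraries). The labels do not give the driver of the recombinase, the age of the mice, or whether the libraries come from different animals, so the p-values speak only of the spread from library to library. In the absence of a group with TAM and intact Star, the effects of TAM, of elapsed time and of losing Star cannot be told apart.

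Zona glomerulosa cells make aldosterone. Angiotensin II binds the type 1 receptor, which acts through Gq and phospholipase C to release stored calcium, and it also depolarises the cell by closing leak potassium channels of the TASK family, among them those encoded by Kcnk3 and Kcnk9. Depolarisation opens voltage-gated calcium channels, including the T-type channel encoded by Cacna1h, and the calcium that enters, read by calmodulin kinases, drives Cyp11b2, the gene of aldosterone synthase. Mice carry paired type 1 receptor genes where humans carry a single one.

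Promoter sequence is shown for the members whose level fell or lay lower after TAM and that have an entry in the RefSeq promoter table (GRCm38.p6), which held 4 of the 8 members in 7 entries. Each stretch ends at the transcription start or at the first annotated exon upstream of it. For Cacnb2 this left 0 bases to print before the upstream start, whose transcript model fell. The stretch printed for Cacnb2 belongs to the downstream start, whose own model overlapped between groups (mean 1.54 FPKM before and 1.48 at 8 weeks). For Vsnl1 the RefSeq entry starts at 11436578, while the deposited tables place the start at 11436649, and the stretch ends before the latter. In Agtr1b the capitals mark TATAAA, which starts 31 bases before the transcription start. In the other stretches the capitals mark CG dinucleotides. The stretches are Agtr1b chr3:20367178-20367427 (minus strand), Vsnl1 chr12:11436650-11436828 (minus strand), Dab2 chr15:6386498-6386597 (plus strand) and, for the downstream start of Cacnb2, chr2:14823842-14824025 (plus strand).
Agtr1b: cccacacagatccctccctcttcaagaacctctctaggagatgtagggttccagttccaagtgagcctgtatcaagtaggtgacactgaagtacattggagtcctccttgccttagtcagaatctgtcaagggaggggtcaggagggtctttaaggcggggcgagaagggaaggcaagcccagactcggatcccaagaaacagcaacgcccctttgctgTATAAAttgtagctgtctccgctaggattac
Vsnl1: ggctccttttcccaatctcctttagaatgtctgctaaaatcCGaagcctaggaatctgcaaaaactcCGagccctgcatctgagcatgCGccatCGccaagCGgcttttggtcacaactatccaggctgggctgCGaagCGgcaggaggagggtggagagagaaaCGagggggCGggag
Dab2: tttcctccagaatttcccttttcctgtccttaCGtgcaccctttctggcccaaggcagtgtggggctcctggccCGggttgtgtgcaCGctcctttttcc
Cacnb2 downstream start: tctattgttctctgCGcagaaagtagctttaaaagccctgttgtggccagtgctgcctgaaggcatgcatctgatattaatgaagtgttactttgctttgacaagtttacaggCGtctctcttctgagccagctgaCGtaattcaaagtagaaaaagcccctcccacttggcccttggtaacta
Over 250 bases before the RefSeq start, Agtr1b had 5 CG dinucleotides, Vsnl1 14 and Dab2 17, against a median of 6 over 32851 promoters. Vsnl1 and Dab2 each have another entry at a start that none of their models in the deposited tables uses, with 4 CG and 41.6% GC for Vsnl1 and 2 CG and 36.8% GC for Dab2. The starts of Cacnb2 differed in composition. Its upstream start had 30 CG and a GC content of 73.2%, which 5.68% of promoters reach, and its downstream start had 3 CG and 46.0% GC, which 72.9% of promoters reach. TATAAA, searched on both strands in the 250 bases before to 50 bases after the start, occurred in 13.6% of all promoters and in 1 of the 7 member promoters, that of Agtr1b. AAGGTCA was in 4.72% of promoters, CAAGGTCA in 1.56%, AAAGGTCA in 1.51% and TGACGTCA in 1.79%, and none of these letters was in the 7 member windows. CAAGGTCA and AAAGGTCA contain AAGGTCA, so these motifs overlap.

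Listed reads per library ranged from 17331673 to 27309429. Levels of Star, the deleted gene, are in FPKM (fragments per kilobase of transcript, scaled to the library total, ± SD). They stood at 3797 ± 399 before TAM, 334.7 ± 274 at 24 h and 146 ± 50.8 at 8 weeks. They sum all listed Star models, among them a model labelled with the deletion and another labelled without it. The levels therefore cannot be read as intact Star RNA alone. Log2 fold changes against before were -3.39 at 24 h (adjusted p = 0.0069) and -4.56 at 8 weeks (adjusted p = 0.00076). Without 24 h replicate 3 the former was -2.98 (adjusted p = 0.00020). In the authors' deposited values the log2 ratio of 8 weeks over before was -2.11 for the model with the deletion. The model without it had -2.995 and the remaining model -5.01. No Star model had a q under 0.05. The library labelled 24 h replicate 3 lacked several defining adrenal markers: Cyp11b1 of the zona fasciculata stood at 1.07 FPKM against 969 to 1990 in the other 24 h libraries, Cyp11b2 at 0.0883 against 249 to 458, Mc2r, the ACTH receptor gene, at 0.132 against 109 to 187, and Th of the medulla at 2.36 against 14.9 to 377. The same library held Nr5a1, the gene of a steroidogenic transcription factor, at 104 FPKM, Cyp11a1 at 983 and Hsd3b1 at 3024. Some markers, named after their values were seen, stood above the other 24 h libraries there. Slc18a2 of the medulla was at 53.7 FPKM against 0.880 to 21.4. Of the zona glomerulosa list, Wnt4 was at 70.1 against 8.83 to 23.1 and Smoc2 at 227 against 30.7 to 35.4. Medulla markers were also low in 24 h replicate 4, where Th stood at 14.9 FPKM. The 24 h results are therefore given with and without replicate 3. Comparisons of both later groups with before share the before libraries.

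Of the 8 genes, 6 fell from before to 8 weeks by edgeR's quasi-likelihood test over all genes, namely Agtr1a, Dab2, Vsnl1, Kcnk3, Cacna1h and Cacnb2, and none rose (0 of 8 also at an unadjusted p under 0.05 or by DESeq2, in all 3 comparisons). In that comparison 16.4% of all genes were called lower. By CPM (read counts scaled to the library total, also used for the other counts of non-overlapping groups set against all genes), every 8-week library lay below every library from before for 7 of the 8, Kcnk9 being the exception, against 21.1% of all genes. The median log2 fold change of the 8 was -2.60, beside 0.03 over all genes. With 24 h replicate 3 left out of the fit, which changes the shared estimate of spread but no 8-week library, Agtr1b was called too and the count was 7 of 8, with 23.4% of all genes called lower. These are levels in whole glands, where fewer cells of a type and less RNA per cell cannot be told apart.

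At 24 h the picture was narrower. Vsnl1, Cacna1h and Cacnb2 fell, with and without replicate 3, and none of the 8 rose. Lower calls made up 6.63% of all genes, or 11.8% without replicate 3. The same 3 genes were those whose 24 h libraries all lay below the before libraries, against 8.28% of all genes, or 16.6% without replicate 3. Between 24 h and 8 weeks, Dab2, Cacna1h and Cacnb2 fell further, where 10.6% of all genes were called lower and 9.76% had every 8-week library below every 24 h library. Without replicate 3 the called genes numbered 7, all but Kcnk9, beside 17.7% of all genes, and 6 had non-overlapping groups beside 17.3%. In replicate 3, Agtr1a, Agtr1b, Dab2, Vsnl1, Kcnk3 and Kcnk9 stood below the other 24 h libraries, while Cacna1h and Cacnb2 did not.

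**Figure D1:**
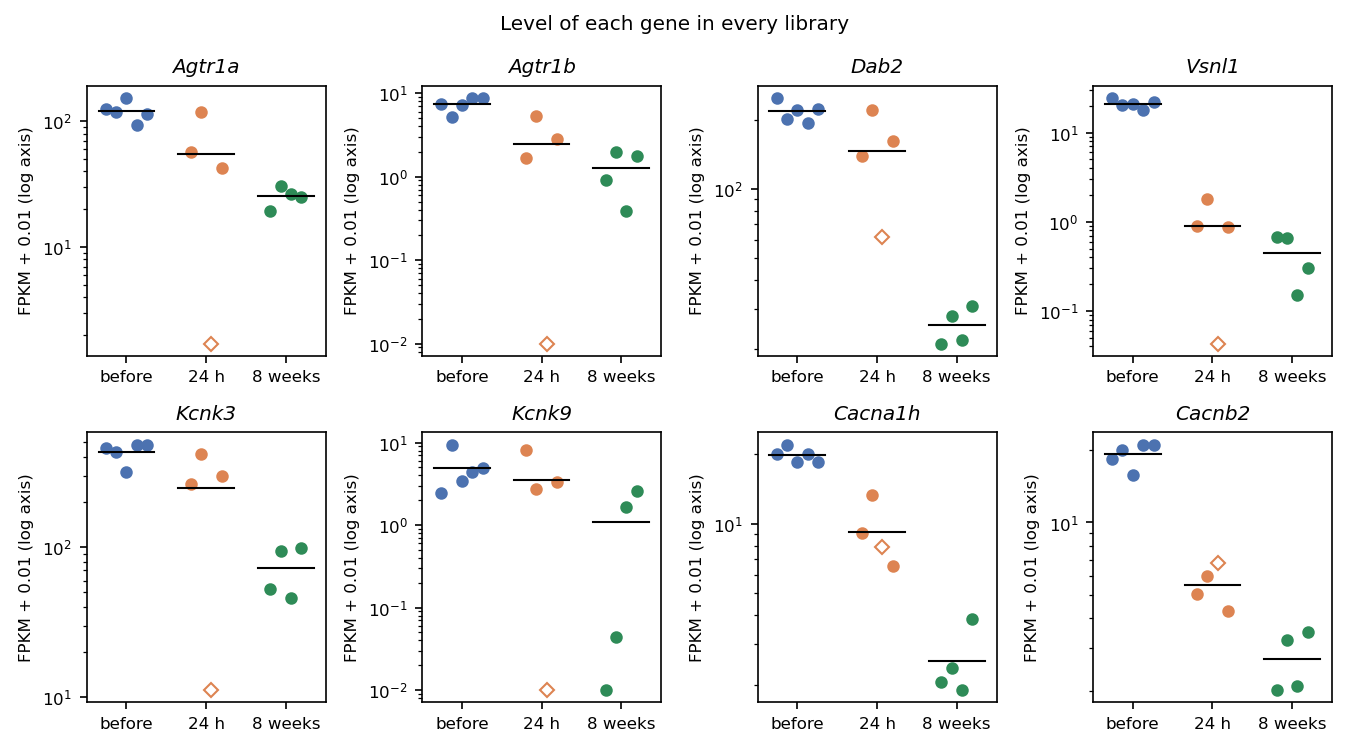
FPKM plus 0.01 of each gene in every library on log axes, by group, with black bars at the group mean and an open diamond for the library labelled 24 h replicate 3. All 8-week libraries lie below all before libraries except for Kcnk9, and Vsnl1 is already at 1.80 FPKM or less in all 4 libraries at 24 h.

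Agtr1a (chromosome 13, 30336356 to 30382867 of mm10, plus strand) encodes the main type 1 angiotensin receptor. Its level before TAM was 125, 118, 152, 93.8 and 113 FPKM in replicates 1 to 5. At 24 h it was 56.9, 119, 1.70 and 42.6 FPKM in replicates 1 to 4, and at 8 weeks 19.4, 30.8, 26.7 and 24.9 FPKM. Replicate 2 at 24 h stood at the before level, replicates 1 and 4 below it, and all 8-week libraries below all others except replicate 3 at 24 h. The fitted log2 fold change at 8 weeks was -2.12 (SE 0.72, adjusted p = 0.035), a 4.34-fold lower level. That call was lost when any 8-week library or before replicate 1, 2, 3 or 5 was left out (adjusted p up to 0.090), and it was firmer without 24 h replicate 3 (-2.15, SE 0.28, adjusted p = 8.5e-05). The 24 h difference of -1.09 (SE 0.69, adjusted p = 0.31) did not pass the test, nor did the -0.66 (SE 0.29, adjusted p = 0.11) found without replicate 3. From 24 h to 8 weeks the difference was -1.03 (adjusted p = 0.32), or -1.49 (SE 0.30, adjusted p = 0.0046) without replicate 3.

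Agtr1b (chromosome 3, 20314473 to 20367177, minus strand), the paralog that adrenal cells also use, was far scarcer. In the before libraries it stood at 7.38, 5.17, 7.17, 8.67 and 8.63 FPKM. The 24 h values were 1.66, 5.32, 0 and 2.82 FPKM, where the 0 of replicate 3 allows up to 0.0446 FPKM (3 reads), and the 8-week values were 0.895, 1.94, 0.382 and 1.76 FPKM. All 8-week libraries were below all before libraries, and 24 h replicate 2 was again within the before range. The 8-week log2 difference of -2.48 (SE 0.93, adjusted p = 0.052) narrowly missed the threshold and passed it without 24 h replicate 3 (-2.51, SE 0.44, adjusted p = 0.00067). The 24 h difference came to -1.54 (SE 0.89, adjusted p = 0.26), or -1.10 (SE 0.45, adjusted p = 0.090) without replicate 3. The receptor genes are close paralogs, so reads in shared stretches may have been divided between them and the split is uncertain. Agtr1b made up 5.96 ± 1.80% of the summed FPKM of both receptor genes before TAM (n = 5), 3.33 ± 2.62% at 24 h (n = 4), 4.44 ± 1.69% there without replicate 3, and 4.60 ± 2.31% at 8 weeks (n = 4). None of the comparisons of this share passed a two-sided exact permutation test (smallest p = 0.14, adjusted p = 0.86 over 6 tests).

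Dab2 (chromosome 15, 6386748 to 6440709, plus strand) encodes an endocytic adaptor that marks zona glomerulosa cells. Before TAM it stood at 249, 202, 222, 194 and 224 FPKM, at 24 h at 139, 222, 61.4 and 162 FPKM, and at 8 weeks at 21.1, 27.9, 21.9 and 30.9 FPKM. The 8-week libraries lay below every other library. Fitted log2 fold changes were -2.99 (SE 0.33, adjusted p = 3.2e-05) from before to 8 weeks and -2.45 (SE 0.33, adjusted p = 0.0015) from 24 h to 8 weeks, or -2.77 (SE 0.19, adjusted p = 2.1e-05) without 24 h replicate 3. The 24 h difference from before was -0.55 (SE 0.30, adjusted p = 0.23), and -0.25 (SE 0.17, adjusted p = 0.30) without replicate 3, which was the lowest of the 4. Most Dab2 RNA came from 1 of 3 listed transcript models, the longest, which held 81.0 ± 2.17% of the gene's FPKM before and 73.7 ± 10.3% at 8 weeks.

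Vsnl1 (chromosome 12, 11325245 to 11436649, minus strand) encodes visinin-like 1, a neuronal calcium sensor that also marks the zona glomerulosa. Of the 8 genes it had the largest fitted change at both times. Its before levels were 24.3, 20.3, 21.1, 17.7 and 22.2 FPKM, and by 24 h they were 0.894, 1.80, 0.0329 and 0.864 FPKM. At 8 weeks it stood at 0.668, 0.645, 0.141 and 0.295 FPKM. All later libraries were below all before libraries, with 6 to 37 reads in each 8-week library. Fitted log2 fold changes were -4.51 (SE 0.72, adjusted p = 0.0010) at 24 h, -4.08 (SE 0.41, adjusted p = 5.8e-05) without replicate 3, and -5.46 (SE 0.77, adjusted p = 0.00018) at 8 weeks, a 43.9-fold lower level. The further difference from 24 h to 8 weeks of -0.95 (adjusted p = 0.34) did not pass, and it was -1.40 (SE 0.39, adjusted p = 0.020) without replicate 3.

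Kcnk3 (chromosome 5, 30588170 to 30625270, plus strand), the TASK-1 channel gene, was the most abundant of the 8. It stood at 459, 432, 318, 477 and 481 FPKM before, at 265, 419, 11.2 and 297 FPKM at 24 h, and at 52.6, 93.9, 45.8 and 98.8 FPKM at 8 weeks. Apart from replicate 3, the 24 h libraries overlapped the before range or lay just under it, and all 8-week libraries were lower. The fall at 8 weeks was of -2.46 on the log2 scale (SE 0.68, adjusted p = 0.014). At 24 h it was -0.74 (SE 0.64, adjusted p = 0.46), or -0.32 (SE 0.25, adjusted p = 0.37) without replicate 3. From 24 h to 8 weeks the difference of -1.71 (SE 0.69, adjusted p = 0.090) did not pass by edgeR. It passed without replicate 3 (-2.17, SE 0.26, adjusted p = 0.00033) and, with that library kept, by DESeq2 (-1.73, adjusted p = 0.022) and limma voom (-1.91, adjusted p = 0.0028).

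Kcnk9 (chromosome 15, 72512119 to 72546279, minus strand), the TASK-3 channel gene, varied widely among libraries of a group. Before TAM it stood at 2.43, 9.38, 3.39, 4.37 and 4.96 FPKM, and at 24 h at 8.12, 2.69, 0 and 3.29 FPKM, where the 0 allows up to 0.0791 FPKM. The 8-week libraries split into 0 (which allows up to 0.0867) and 0.0344 FPKM in replicates 1 and 2, and 1.66 and 2.58 FPKM in replicates 3 and 4, from 0, 1, 44 and 60 reads. Replicate 4 at 8 weeks was above replicate 1 from before, so the groups overlapped. The 8-week log2 difference of -2.04 (SE 1.30, adjusted p = 0.23) and the 24 h difference of -0.42 (SE 1.21, adjusted p = 0.85) did not pass, and without 24 h replicate 3 they were -2.09 (adjusted p = 0.10) and 0.02 (adjusted p = 0.99). Kcnk9 gave 1.13 ± 0.60% of the summed FPKM of both TASK genes before, 1.18 ± 1.28% at 24 h (1.57 ± 1.24% without replicate 3) and 1.52 ± 1.78% at 8 weeks, and no comparison of that share passed (exact permutation tests, adjusted p = 0.95 in each).

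Cacna1h (chromosome 17, 25374287 to 25433783, minus strand) encodes the pore of the Cav3.2 T-type calcium channel. Its before levels lay close together at 20.0, 22.0, 18.5, 20.0 and 18.5 FPKM. They were 9.09, 13.4, 7.92 and 6.57 FPKM at 24 h and 2.05, 2.36, 1.89 and 3.85 FPKM at 8 weeks. The 3 groups did not overlap, and replicate 3 at 24 h sat among the other libraries of its group. Fitted log2 fold changes were -1.08 (SE 0.22, adjusted p = 0.0050) at 24 h, -0.96 (SE 0.23, adjusted p = 0.0087) without replicate 3, -2.84 (SE 0.24, adjusted p = 7.6e-06) at 8 weeks, and -1.76 (SE 0.24, adjusted p = 0.0015) from 24 h to 8 weeks, or -1.92 (SE 0.23, adjusted p = 0.00034) without replicate 3.

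Cacnb2 (chromosome 2, 14604306 to 14987908, plus strand) encodes a beta subunit that escorts high-voltage-activated calcium channels to the membrane. It stood at 18.2, 19.9, 15.7, 20.9 and 21.0 FPKM before, at 5.03, 5.98, 6.77 and 4.27 FPKM at 24 h and at 2.00, 3.24, 2.09 and 3.49 FPKM at 8 weeks. As for Cacna1h, the 3 groups did not overlap, and here replicate 3 was the highest 24 h library. Fitted log2 fold changes were -1.80 (SE 0.17, adjusted p = 0.00011) at 24 h, -1.84 (SE 0.18, adjusted p = 5.3e-05) without replicate 3, -2.72 (SE 0.18, adjusted p = 3.1e-06) at 8 weeks, and -0.93 (SE 0.18, adjusted p = 0.0062) from 24 h to 8 weeks, or -0.91 (SE 0.18, adjusted p = 0.0039) without replicate 3.

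**Figure D2:**
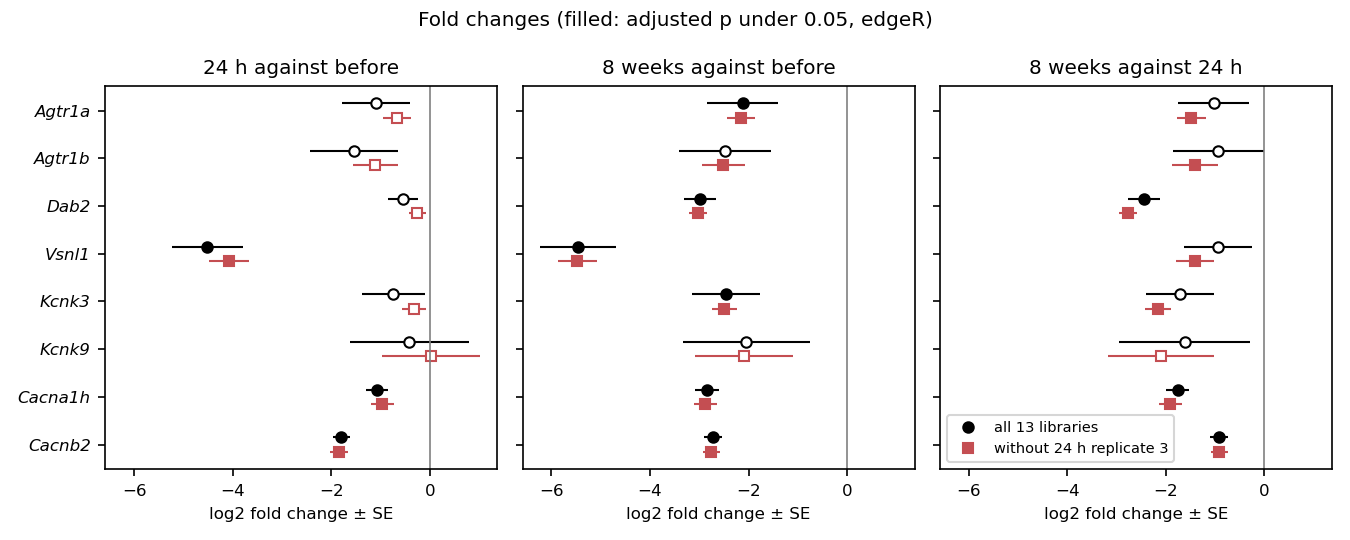
Fitted log2 fold change with its SE for each gene in the 3 comparisons, from all 13 libraries (black circles) and without 24 h replicate 3 (red squares), filled where the adjusted p is under 0.05. Vsnl1 stands farthest left at 24 h and at 8 weeks, and leaving out the library shortens the error bars of Agtr1a, Agtr1b, Vsnl1 and Kcnk3 more than those of Cacna1h and Cacnb2.

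The models of Cacnb2 that begin at its separate starts differed, which was chosen for description after the values were seen and carries no test. The model that begins upstream, at 14604306, gave 17.6 ± 2.18 FPKM before TAM (range 15.5 to 20.9), 3.35 ± 0.73 at 24 h (2.52 to 4.06) and 1.23 ± 0.48 at 8 weeks (0.692 to 1.86). These ranges did not overlap. The model that begins downstream, at 14824092, after the sequence printed above, gave 1.54 ± 1.80 FPKM before (0.105 to 4.56), 2.16 ± 1.81 at 24 h (0.209 to 4.25) and 1.48 ± 0.45 at 8 weeks (0.905 to 1.99). Its ranges overlapped throughout. The downstream model thus made up 7.72 ± 8.53% of Cacnb2 FPKM before, 35.3 ± 26.2% at 24 h (26.1 ± 22.8% without replicate 3) and 55.0 ± 10.8% at 8 weeks. In the authors' deposited table the log2 ratio of 8 weeks over before was -3.92 (q = 0.00032) for the upstream model and 0.92 (q = 0.53) for the downstream model. Reads common to both models were assigned by estimate, so the split is uncertain.

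**Figure D3:**
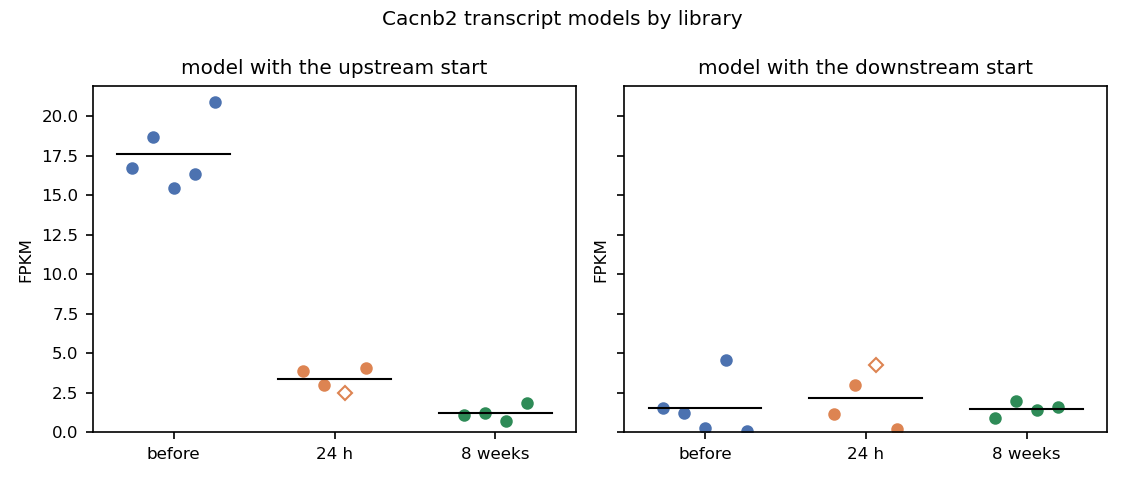
FPKM of the Cacnb2 transcript models with the upstream start (left) and the downstream start (right) in every library, with black bars at group means and an open diamond for 24 h replicate 3. The upstream model steps down from 17.6 to 3.35 to 1.23 FPKM, while the downstream model stays under 5 FPKM in every library.

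Before TAM the levels per transcript length ordered as Kcnk3 (433 FPKM), Dab2 (218), Agtr1a (121), Vsnl1 (21.1), Cacna1h (19.8), Cacnb2 (19.2), Agtr1b (7.40) and Kcnk9 (4.90). The ranges of Vsnl1, Cacna1h and Cacnb2 overlapped between neighbours, as did those of Agtr1b and Kcnk9. All other neighbours in this order were separated by their ranges over the 5 libraries.

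Cortex-wide genes fell at 8 weeks as well, so each gene was also set against Nr5a1, Cyp11a1, Scarb1 (the HDL receptor gene) and Fdx1 (the adrenodoxin gene) of the same library, as the log2 ratio of its FPKM plus 0.01 to their geometric mean. These ratios are a description with no test. The log2 of that mean was 9.44 ± 0.40 before, 9.91 ± 0.46 at 24 h without replicate 3 and 7.29 ± 0.65 at 8 weeks, so at 24 h the reference itself lay higher than before, with overlapping groups. Its genes did not move together from before to 24 h without replicate 3. Mean Scarb1 went from 981 to 2491 FPKM, Fdx1 from 406 to 827 and Cyp11a1 from 2893 to 3333, while Nr5a1 went from 278 to 148. The 24 h ratios therefore depend on which genes form the reference. At 8 weeks the ratio of Agtr1a differed from before by -0.09 with overlapping groups, and Kcnk3 (-0.48), Agtr1b (-0.64), Cacnb2 (-0.70), Cacna1h (-0.86), Dab2 (-0.95) and Kcnk9 (-2.24) overlapped too. Vsnl1 alone lay lower in every 8-week library, by 3.64 on the log2 scale from a mean of -5.05 to -8.69. At 24 h without replicate 3, Vsnl1 (-4.69), Cacnb2 (-2.38), Agtr1b (-1.78), Cacna1h (-1.56) and Agtr1a (-1.32) all lay below every before library relative to these cortex genes, while Kcnk3 (-0.88), Dab2 (-0.81) and Kcnk9 (-0.55) overlapped. Against all 8 cortex-wide genes the same 5 lay below every before library by less, with differences of -4.16, -1.85, -1.25, -1.03 and -0.79 in that order, beside -0.36, -0.28 and -0.02 for Kcnk3, Dab2 and Kcnk9. The ratio of Agtr1a to the 4 genes was higher in every 8-week library than in every 24 h library, by 1.22 without replicate 3 and 1.97 with it. In replicate 3 the ratios parted: with it included, the 24 h groups of Cacna1h (-1.04) and Cacnb2 (-1.70) overlapped the before group.

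**Figure D4:**
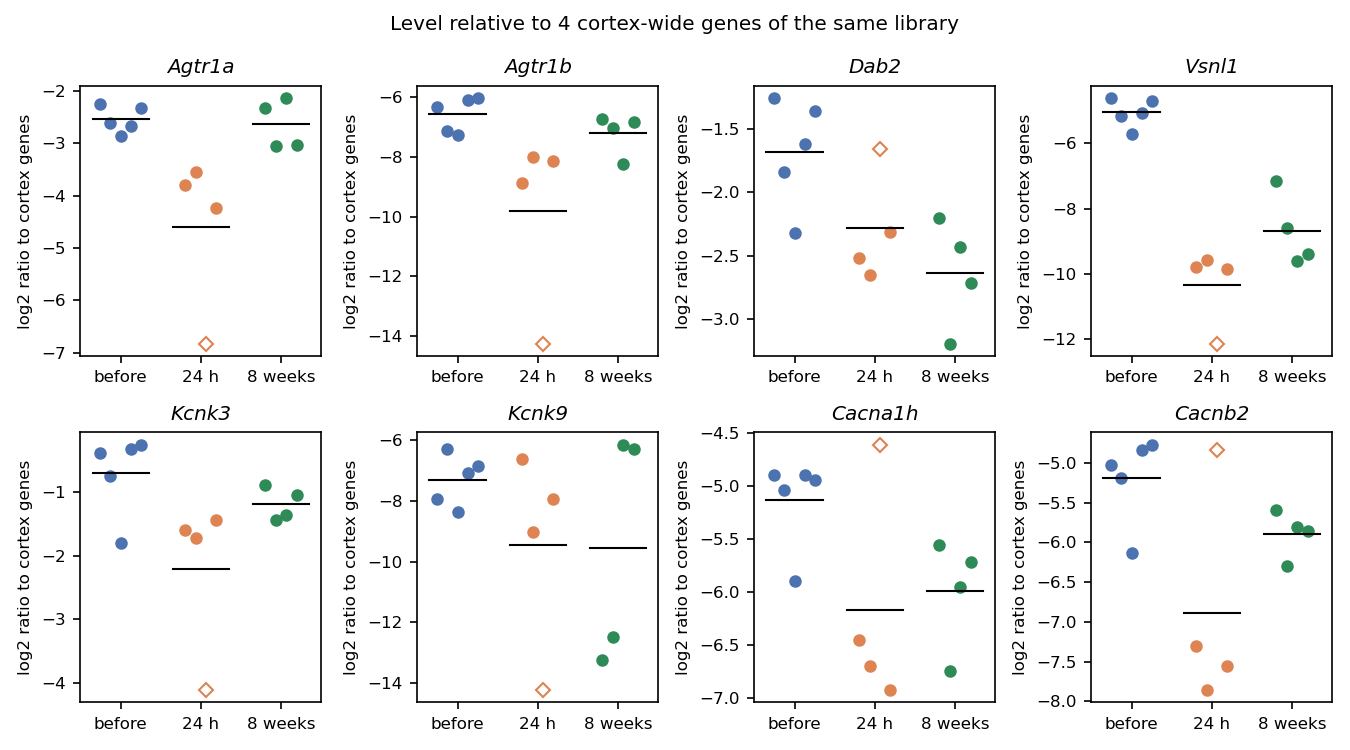
Log2 ratio of each gene to the geometric mean of Nr5a1, Cyp11a1, Scarb1 and Fdx1 of the same library, by group, with black bars at group means and an open diamond for 24 h replicate 3. The ratio of Agtr1a dips at 24 h, when the reference lay higher without replicate 3, and its 8-week libraries overlap the before group. Vsnl1 stays below its before range at both times.

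Markers of other cell types that can hold some of these transcripts moved in the opposite direction. Over all genes 20.5% were called higher at 8 weeks and 12.6% at 24 h (16.6% at 24 h without replicate 3). Macrophages, which also express Dab2, had 10 of 11 measured markers higher at 8 weeks, and their summed level went from a range of 426 to 1152 FPKM before TAM to 5622 to 10710. Smooth muscle, which also expresses Agtr1a, had 8 of 10 markers higher, with sums of 77.5 to 111 FPKM before and 135 to 259 at 8 weeks. Fat cells, whose brown type also expresses Kcnk3, had 6 of 10 markers higher, with sums of 211 to 1309 FPKM before and 4491 to 10841 at 8 weeks. Capsule and fibroblast markers were higher for 6 of 8 genes and Schwann and nerve markers for 4 of 6, and none of 12 medulla markers was called by edgeR (1 at an unadjusted p under 0.05 and 1 by DESeq2), though their sums were 1434 to 6154 FPKM before and 6521 to 9272 at 8 weeks. The medulla call depended on the fit: 10 of the 12 were higher by edgeR with only the before and 8-week libraries or without 24 h replicates 3 and 4, and 8 by limma voom. Of the 8 endothelial markers none was called by edgeR either (2 at an unadjusted p under 0.05 and 2 by DESeq2, sums of 309.6 to 352 FPKM before and 217 to 313 at 8 weeks). Without 24 h replicate 3, edgeR called Kdr, Tek and Emcn lower, and with only the before and 8-week libraries it called Kdr and Tek lower and Pecam1, Cdh5 and Esam higher. Before replicate 1 had the lowest fat sum of its group, and 1 fat marker was at 0 there (Elovl3) and another in 24 h replicate 3 (Lep). No marker of the other lists was at 0 in any library. At 24 h 10 of 11 macrophage and 6 of 10 smooth muscle markers were higher already, with sums of 2498 to 4367 and 172 to 271 FPKM. Without replicate 3 these counts were 10 of 11 and 5 of 10, with sums of 3832 to 4367 and 172 to 271 FPKM. The part of these shifts in the fall of the 8 genes was not tested.

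Cortical lists moved down with them at 8 weeks, when 16.4% of all genes were called lower (23.4% without 24 h replicate 3). Of 8 cortex-wide genes 4 fell (7 without 24 h replicate 3), and their summed level went from 11570 to 15350 FPKM before to 1197 to 2915. Of 3 zona fasciculata genes 1 fell (3 without replicate 3), with sums of 2712 to 10247 FPKM before and 513 to 1454 at 8 weeks. Of 10 measured other zona glomerulosa genes, 5 fell and 1 rose (6 and 3 without replicate 3), with a median log2 change of -1.50. Among those that fell, Wnt4, a signal of zonation, went from 86.1 ± 26.5 to 5.00 ± 2.02 FPKM (log2 fold change -3.99, adjusted p = 0.00015) and Shh, a signal to the capsule, from 12.8 ± 2.41 to 0.280 ± 0.247 FPKM (-5.41, adjusted p = 0.0020). Both were chosen after their values were seen. Ncam1, the gene that rose, went from 4.29 ± 1.97 to 12.0 ± 1.54 FPKM. In the fit without 24 h replicate 3, Smoc2 (19.0 ± 5.53 to 36.8 ± 15.4 FPKM) and Dach1 (1.53 ± 0.388 to 2.75 ± 0.256 FPKM) were called higher too. At 24 h, Shh had fallen to 1.01 ± 1.47 FPKM (-3.63, adjusted p = 0.020), or 1.34 ± 1.60 FPKM without replicate 3 (-3.19, adjusted p = 0.0080). Cyp11b2, aldosterone synthase, also chosen after its values were seen, behaved differently from the 8 genes at 24 h: 249, 336 and 458 FPKM in replicates 1, 2 and 4 were all above the before range of 92.0 to 193 FPKM (log2 fold change 1.56, adjusted p = 0.021 without replicate 3; 1.12, adjusted p = 0.50 with it). At 8 weeks it stood at 11.5 to 67.8 FPKM, below all before libraries (-1.51, adjusted p = 0.30; -1.54, adjusted p = 0.012 without replicate 3).

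**Figure D5:**
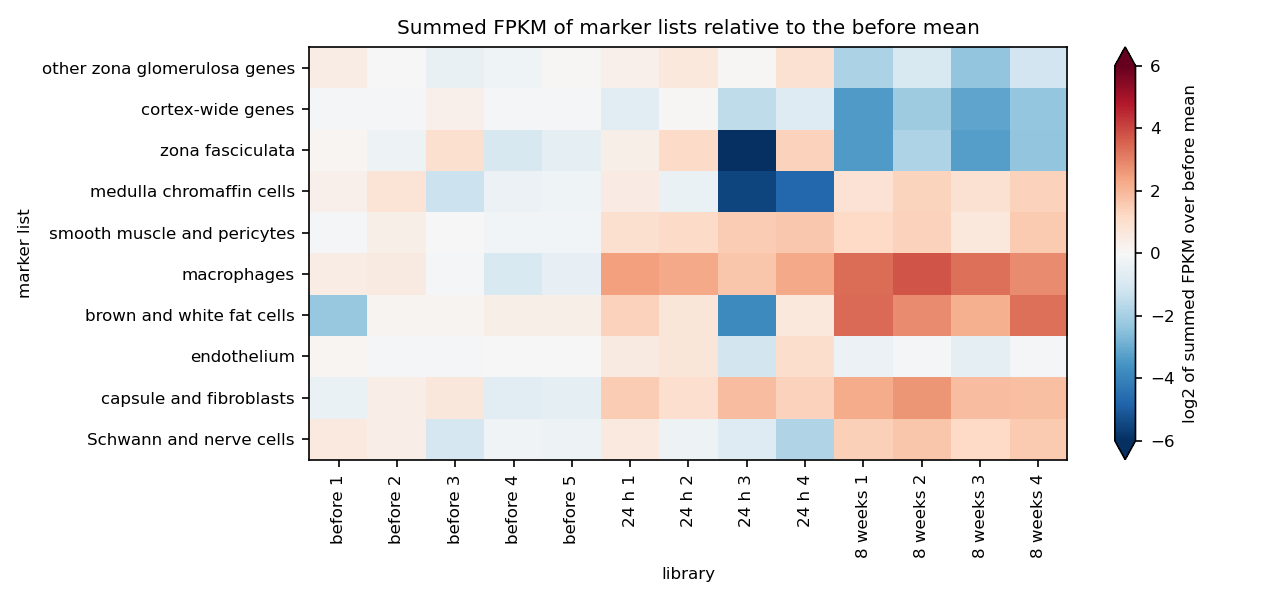
Log2 of the summed FPKM of each marker list over its before mean, for every library, with red above and blue below the before mean and the scale ending at 6 in both directions. Macrophage and fat lists are red and the cortical lists blue at 8 weeks, and 24 h replicate 3 is at -7.12 for the zona fasciculata and -5.50 for the medulla.

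Upstream of the receptor, the renin-angiotensin list held 5 called genes of 9 tested at 8 weeks, all higher (6 higher and 1 lower without 24 h replicate 3), with a median log2 change of 1.32. Over all genes 20.5% were called higher, or 24.3% without replicate 3. Atp6ap2, the prorenin receptor gene, rose from 40.8 ± 3.64 to 78.3 ± 11.0 FPKM (log2 fold change 1.07, adjusted p = 0.00020). Ace, the converting enzyme gene, rose from 3.85 ± 1.04 to 9.90 ± 1.91 FPKM (1.32, adjusted p = 0.00091) and Enpep, which degrades angiotensin II, from 7.14 ± 1.56 to 14.4 ± 5.92 FPKM (1.18, adjusted p = 0.0060). Ren1, the renin gene, chosen after its values were seen, went from 0.210 to 1.62 FPKM before TAM to 48.7, 41.3, 0.583 and 102 FPKM at 24 h (log2 fold change 5.89, adjusted p = 0.0022; 6.31, adjusted p = 6.3e-05 without replicate 3) and to 4.72, 21.4, 8.46 and 9.92 FPKM at 8 weeks (3.80, adjusted p = 0.0094). Only replicate 3 at 24 h stayed in the before range. At 24 h 3 genes of the list rose, with and without replicate 3, where 12.6% of all genes were called higher with it and 16.6% without it.

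Downstream of the receptor, the list of Gq, phospholipase C and protein kinase C genes had 5 of 18 higher and 5 lower at 8 weeks (median -0.18). Over all genes 20.5% were called higher and 16.4% lower. Plcb1, a phospholipase C that Gq activates, fell from 24.4 ± 3.07 FPKM to 7.46 ± 4.14 at 24 h (log2 fold change -1.66, adjusted p = 0.012; -1.31, adjusted p = 0.00024 without replicate 3) and 4.63 ± 0.97 at 8 weeks (-2.27, adjusted p = 0.0010). Its family member Plcb2, best known from blood cells, rose from 0.758 ± 0.314 to 2.36 ± 0.544 FPKM at 8 weeks (1.78, adjusted p = 0.00098), and Prkcb, a protein kinase C gene also abundant in immune cells, from 3.01 ± 0.898 to 9.76 ± 1.56 FPKM (1.83, adjusted p = 3.2e-05). Both risers moved with the macrophage sums given above, and the part of those cells was not tested. Among the fallers were also Gna11, Itpr1, Prkd1 and Rgs2. Of 10 tested calmodulin and calmodulin kinase genes, 2 rose and 2 fell at 8 weeks, beside those same shares of all genes. At 24 h none was called by edgeR (1 at an unadjusted p under 0.05 and 0 by DESeq2), while 1 rose without replicate 3. Over all genes 12.6% were called higher and 6.63% lower at 24 h, or 16.6% and 11.8% without replicate 3. Camk4 rose from 0.401 ± 0.117 to 0.927 ± 0.0372 FPKM (1.35, adjusted p = 0.034), and Camk2d fell from 30.1 ± 3.95 to 16.4 ± 2.81 FPKM (-0.75, adjusted p = 0.021).

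Of the other potassium channels, 5 of 8 tested genes fell at 8 weeks and 1 rose (median -1.49), beside 16.4% of all genes called lower and 20.5% higher. At 24 h by edgeR none fell and 1 rose (2 were lower at an unadjusted p under 0.05, 0 by DESeq2, and Kcnq1 fell without replicate 3). Over all genes 6.63% were called lower and 12.6% higher there. Kcnma1, the large-conductance calcium-activated channel gene, went from 12.6 ± 1.86 FPKM before to 9.36 ± 1.42 at 24 h (-0.40, adjusted p = 0.15; -0.29, adjusted p = 0.25 without replicate 3) and 3.14 ± 0.899 at 8 weeks (-1.88, adjusted p = 2.0e-05). Kcnq1 went from 4.07 ± 1.27 to 0.707 ± 0.274 FPKM at 8 weeks (-2.40, adjusted p = 0.00082). Kcnj5, whose human counterpart is mutated in aldosterone-producing adenomas, was low throughout, at 0.363 ± 0.280 FPKM before and 0.0346 ± 0.0249 at 8 weeks (-3.26, adjusted p = 0.0016).

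Among the other voltage-gated calcium channel subunits, 3 of 10 tested fell and 2 rose at 8 weeks (median 0.44). Over all genes 16.4% were called lower and 20.5% higher. Cacna1c, the Cav1.2 pore that a beta subunit accompanies, fell at both times like Cacnb2, from 20.4 ± 4.25 FPKM to 6.45 ± 2.83 at 24 h (-1.60, adjusted p = 0.0056; -1.30, adjusted p = 0.0011 without replicate 3) and 1.39 ± 0.383 at 8 weeks (-3.77, adjusted p = 1.7e-05). Cacna2d3, an auxiliary subunit gene, fell from 1.25 ± 0.369 to 0.342 ± 0.0931 at 24 h (-1.83, adjusted p = 0.0050; -1.63, adjusted p = 0.0076 without replicate 3) and 0.184 ± 0.0786 FPKM at 8 weeks (-2.62, adjusted p = 0.00029). Cacnb3, another beta subunit gene, rose from 6.29 ± 1.51 to 10.6 ± 1.94 FPKM at 8 weeks (0.87, adjusted p = 0.0031). Cacna1d, the Cav1.3 pore gene, also chosen after its values were seen, rose from 2.61 ± 0.661 to 4.35 ± 0.453 FPKM (0.87, adjusted p = 0.026).

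Ion pumps and other channels tied to aldosterone gave 4 of 15 higher and 2 lower at 8 weeks (median 0.37), beside 20.5% of all genes called higher and 16.4% lower. The 2 that fell were also lower at 24 h. Atp2b3, a plasma membrane calcium pump gene mutated in human aldosterone-producing adenomas, went from 23.1 ± 7.47 FPKM before to 2.89 ± 1.36 at 24 h (-2.99, adjusted p = 0.00022; -3.14, adjusted p = 0.00018 without replicate 3) and 2.18 ± 0.363 at 8 weeks (-3.27, adjusted p = 3.3e-05). Clcn2, a chloride channel gene mutated in familial hyperaldosteronism, went from 29.9 ± 12.8 FPKM to 7.63 ± 4.28 (-1.98, adjusted p = 0.0091; -2.30, adjusted p = 0.0043 without replicate 3) and 5.38 ± 2.47 (-2.31, adjusted p = 0.0020). Atp2b4, a related pump gene, rose from 5.10 ± 0.864 to 8.40 ± 1.56 FPKM at 8 weeks (0.85, adjusted p = 0.0057).

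Genes with the most similar course were sought by the root mean square difference of log2 values (library-scaled counts in CPM plus 0.5, relative to the before mean) over the 13 libraries, among genes that averaged at least 5 CPM in a group. This is a description that includes replicate 3. Nearest to Agtr1a were Rasgrf1 (difference 0.315) and Kcnk3 (0.546), and nearest to Agtr1b were Hoxb8 (0.493) and again Kcnk3 (0.517). Dab2 lay nearest to Fdxr (0.299) and Fgfr2 (0.305), Cacna1h to Samd5 (0.252) and Tbx3 (0.329), and Cacnb2 to Dlgap1 (0.302) and Pdgfd (0.310). Kcnk3 lay nearest to Syt12 (0.436) and Tesc (0.460), and Kcnk9 to Lrrc8b (0.661) and Abhd2 (0.713). Vsnl1 had Shh (0.592) and Star itself (0.715) as nearest genes, with Shh at 12.8, 1.01 and 0.280 FPKM and Star at 3797, 334.7 and 146 FPKM before, at 24 h and at 8 weeks. Among the 8 genes, the closest pairs were Dab2 with Cacna1h (0.447) and Cacna1h with Cacnb2 (0.448), then Agtr1b with Kcnk3, and the 2 receptor genes lay 0.648 apart. Every pair that included Vsnl1 was at least 2.00 apart.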

How the data were processed

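Stranded mRNA libraries of 13 mouse adrenal samples were analysed from deposited tables. Per the submitters' processing notes, bcl2fastq 2.17 and TopHat2 2.0.14 were used on mm10 (GRCm38). The deposited tables give an expected count (an estimated read count that need not be whole) and FPKM for each transcript and library, per the file headers. A further deposited table gives the authors' log2 ratio, p-value and q-value of 8 weeks over before per transcript. The fit covers the 14078 genes of transcripts listed for all 3 groups, so list genes outside them could not be tested.

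Expected counts were summed per gene, rounded and tested with edgeR 4.0.16 (R 4.3.3): quasi-likelihood test, TMM scaling, filterByExpr, all 13 libraries in 1 fit, Benjamini-Hochberg adjustment over all genes, threshold 0.05. Fold changes are log2, and their SE is the change divided by the root of F. Gene levels are summed FPKM. Shares were compared by exact permutation tests. The script was tested on simulated data. Alternatives were DESeq2 1.42.0, limma 3.58.1 voom with quality weights, no scaling, no filter, 2-group fits, a replicate block and leaving out each library. The filter kept all 14078 genes in the main fit, so the alternative with no filter could not change a result. The members and lists were chosen with earlier results of these data known. Named were all 8 members, Star, the 2 nearest genes in course per member, and up to 3 called genes per pathway list in order of p at 8 weeks. Some list genes are counted but their own values are not reported here. Genes outside this rule are said to have been chosen after their values were seen. Replicates 1 to 4 share numbers across groups, but the labels do not tie them to 1 animal, litter or day. Of 12 same-numbered pairs 2 had correlated deviations over 0.1, so they were not treated as pairs. Intervals from a count of 0 (3 reads) cover counting error only.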

Additional observations from a re-analysis of the deposited data

How the results depend on the processing

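Under the alternatives run, the count of the 8 genes called at 8 weeks against before ran from 5 to 8, and from 3 to 4 at 24 h against before, always lower. With limma voom 8101 genes over the whole table were called at 8 weeks against before and 5378 at 24 h against before, in place of 5193 and 2708. For 8 weeks against 24 h, the fit of only those groups called 973 genes in place of 2923, and leaving out single libraries gave 1782 to 4300. Of the 8 genes, 3 to 7 were called there when single libraries were left out, 5 with limma voom, and, by settings chosen after seeing the data, 5 in the fit of those groups without 24 h replicate 3 and 6 without replicates 3 and 4. The log2 fold change of Star between 24 h and 8 weeks was -1.17 and missed the threshold. It passed at -1.60 with limma voom, -1.62 without 24 h replicate 3 (range over single libraries -1.62 to -0.68), -1.58 in the 2-group fit without replicate 3 and -1.94 without replicates 3 and 4. Dab2 relative to cortex genes at 24 h was -0.60, and 0.14 with all 8 cortex-wide genes as the reference. Agtr1b at 8 weeks was called by DESeq2 (adjusted p = 0.0096), and Kcnk9 by limma voom alone (-4.29, adjusted p = 0.025). The causes were not tested.

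With the replicate number as a block, 1312 genes were called at 24 h against before and 1661 at 8 weeks against 24 h, and Agtr1a at 8 weeks had an adjusted p of 0.090. In 3 of 24 cases a library correlated best with the library of its own number in another group. Of the other results' alternatives, 228 that answer a comparison kept their direction and side of the threshold or stayed within 1.5 times the count. For single genes and lists, 1281 values were counted as unchanged, 160 moved, 21 newly passed the threshold and 9 lost it (all Agtr1a at 8 weeks against before). A further 1 was counted as reversed, but more values changed sign without passing. Kcnk9 at 24 h against before was -0.42 with all libraries, 0.02 without replicate 3 and 0.19 without replicates 3 and 4. Depth limits Kcnk9 and Vsnl1 at 8 weeks, where libraries held 0 to 60 and 6 to 37 reads.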
